A study of Mus musculus with 8 samples.

Results

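Cation-chloride cotransporters are SLC12 family membrane proteins, and 4 of their genes, Slc12a2, Slc12a4, Slc12a5 and Slc12a7, were followed here in dorsal root ganglia (DRG) of E18.5 mouse embryos. The genes were chosen by symbol from the 55414 Ensembl gene IDs listed for every library, and the rule uses no measured value, although earlier results of these data were known when it was written. All 4 passed the filter on low counts that left 17721 genes for testing. The question was whether their transcript levels differ when the transcription factor Dach1 is forced on in sensory neurons. AD1 OE embryos had the genotype AdvillinCre/+;Rosa26Dach1/+, in which Cre driven from the Advillin locus of sensory neurons removes a stop cassette before Dach1-IRES-EGFP. Controls were Advillin+/+;Rosa26Dach1/+, so they carried the same Rosa26Dach1 allele without Cre, and each genotype gave 4 bulk RNA-seq libraries. Pups with both alleles die around birth, and the labels describe the material as neurons and glia. All comparisons therefore concern the whole ganglion, in which fewer cells of a type and less RNA per cell cannot be told apart.

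The cotransporters set the chloride concentration inside cells. NKCC1, encoded by Slc12a2, carries sodium, potassium and chloride inwards, while KCC1 (Slc12a4), KCC2 (Slc12a5) and KCC4 (Slc12a7) carry potassium and chloride outwards. Central neurons gain KCC2 as they mature, and GABA then hyperpolarizes them. Primary sensory neurons are known for keeping NKCC1 and a high internal chloride, so that GABA depolarizes their terminals. WNK kinases, through SPAK and OSR1, phosphorylate the whole family, which stimulates NKCC1 and inhibits the KCCs, and the sodium-potassium pump maintains the ion gradients on which both depend.

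Total counts ranged from 22339059 to 44025625 per library. Dach1 itself was at 95.9 ± 5.28 CPM (counts scaled by library size; SD, n = 4) in AD1 OE and at 32.6 ± 1.64 CPM in Control, with no overlap between groups (log2 fold change 1.56, SE 0.05, edgeR quasi-likelihood test, adjusted p = 1.77e-08 after Benjamini-Hochberg). Avil, whose locus carries the Cre, was at 464 ± 12 CPM in AD1 OE against 892 ± 35.1 in Control. Transcripts of Y-linked genes were present in AD1 OE 1, 2 and 4 and in Control 4, and Xist was high in AD1 OE 3 and in Control 1 to 3, so sex was unevenly spread over the groups. The summed CPM of 10 sensory neuron markers ranged from 8649 to 9419.9 in AD1 OE and from 9468 to 9876 in Control, without overlap (exact permutation test, two-sided, p = 0.0286, the smallest this design allows). Without Avil, which was the called gene of that list, the sums were 8199.8 to 8953 and 8627 to 8957 (exact permutation test, two-sided, p = 0.1714). Satellite and Schwann glia markers summed to 2319 to 2558 CPM in AD1 OE and to 2373 to 2766 CPM in Control, so both labelled cell classes were present in every library. The sums for glia, fibroblast, endothelial, macrophage, erythroid and skeletal muscle markers overlapped between groups.

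A gene was called changed at an edgeR adjusted p below 0.005 together with an absolute log2 fold change above 0.25. By this rule 2.57% of all tested genes were called, and 0 of the 4 cotransporter genes were. At an adjusted p below 0.05 with no limit on the fold, 6.55% of all tested genes passed and again 0 of the 4. At an unadjusted p below 0.05, 18.6% of all tested genes passed and 1 of the 4 did, namely Slc12a5. The libraries of the groups overlapped for each of the 4 genes, whereas they did not overlap for 13.0% of all tested genes. The median log2 fold change was 0.017 over the 4 genes and 0.00182 over all tested genes. The p-values measure the spread between these libraries only. The labels do not say whether each came from a separate embryo, while the paper counts 4 embryos per group for this comparison.

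Slc12a2 (ENSMUSG00000024597, chromosome 18), the chloride-loading member, was at 209.5, 226, 209 and 216 CPM in AD1 OE 1 to 4 and at 192, 217, 227 and 214 CPM in Control 1 to 4. The lowest and the highest library were both Controls, and the AD1 OE libraries lay between them. The means were 215 ± 8.07 CPM in AD1 OE against 212 ± 15 in Control (SD, n = 4). The log2 fold change was 0.02 (SE 0.05, 95% interval -0.09 to 0.13, edgeR adjusted p = 0.907), which as a ratio allows 0.937-fold to 1.09-fold. Raw counts of Slc12a2 ran from 4260 to 9267, so counting error was small against this spread.

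The KCC1 gene Slc12a4 (ENSMUSG00000017765, chromosome 8), a broadly expressed potassium-chloride exporter, was at 40.1, 37.3, 41.9 and 35.2 CPM in AD1 OE 1 to 4. In Control 1 to 4 it was at 37.9, 38.1, 37.8 and 37.5 CPM. The Control libraries were nearly equal to each other, and the AD1 OE libraries lay on both sides of them. Means of 38.6 ± 2.97 and 37.8 ± 0.238 CPM gave a log2 fold change of 0.03 (SE 0.06, 95% interval -0.09 to 0.15, edgeR adjusted p = 0.833). An antisense gene, Gm16156, shares 8.44% of the annotated exon bases of Slc12a4, and the strand setting of the counting is not stated.

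Slc12a7 (ENSMUSG00000017756, chromosome 13) encodes KCC4, a potassium-chloride exporter known from the inner ear and kidney. It was at 62.1, 60.5, 64.6 and 58.7 CPM in AD1 OE 1 to 4 and at 54.4, 64.3, 56.3 and 67.8 CPM in Control 1 to 4. Again the Control libraries held both extremes, with Control 1 lowest and Control 4 highest. Means were 61.5 ± 2.50 CPM in AD1 OE against 60.7 ± 6.41 in Control. The log2 fold change of 0.02 (SE 0.07) had a 95% interval of -0.13 to 0.16 (edgeR adjusted p = 0.932), or 0.914-fold to 1.12-fold.

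**Figure D1:**
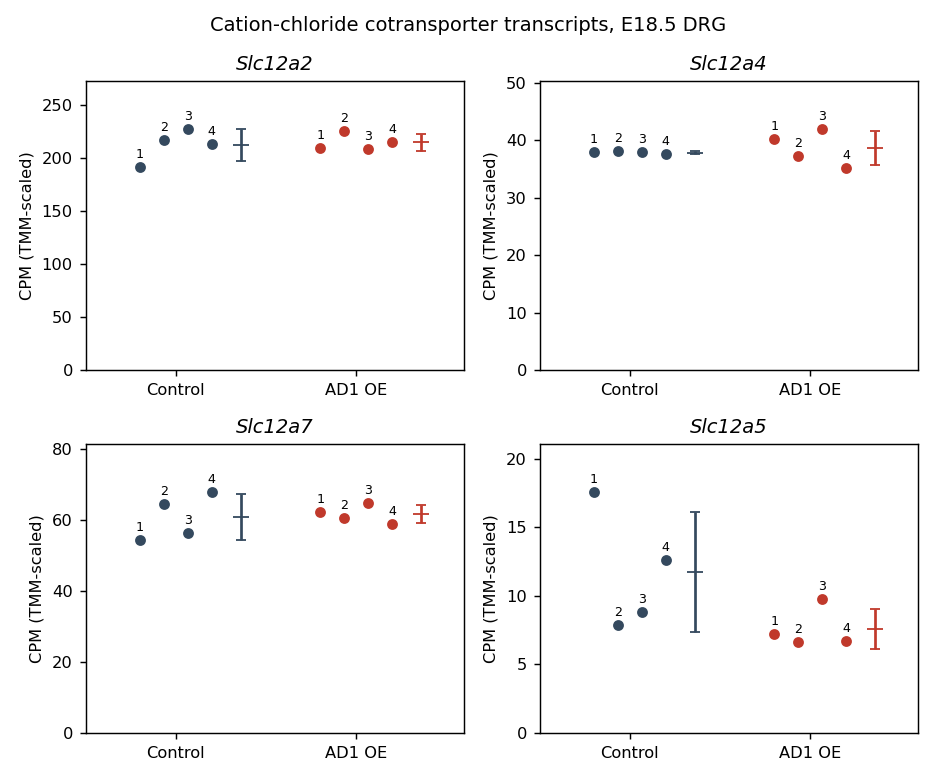
CPM of Slc12a2, Slc12a4, Slc12a5 and Slc12a7 in each library (linear axes; points are libraries, numerals are replicate numbers, bars are the mean ± SD of 4 libraries per group). AD1 OE and Control overlap in every panel, and for Slc12a5 the Control 1 library at 17.6 CPM stands above the rest.

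Slc12a5 (ENSMUSG00000017740, chromosome 2), which encodes the neuronal chloride exporter KCC2, was the least abundant of the 4 and the most variable. It was at 7.23, 6.64, 9.75 and 6.73 CPM in AD1 OE 1 to 4 and at 17.6, 7.91, 8.84 and 12.6 CPM in Control 1 to 4. Control 1 and Control 4 were highest, while Control 2 and Control 3 lay below AD1 OE 3. The coefficient of variation was 37.5% in Control and 19.3% in AD1 OE. Raw counts were between 149 and 447.

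The mean of Slc12a5 was 7.59 ± 1.47 CPM in AD1 OE against 11.7 ± 4.4 in Control, a ratio of 0.650. Its log2 fold change of -0.62 (SE 0.22, 95% interval -1.11 to -0.13) had an unadjusted p of 0.0167 and an adjusted p of 0.146 in edgeR, so it was not called. When no gene was filtered on low counts, the log2 fold change was -0.61 and the edgeR adjusted p was 0.00158, which passed both limits, and this was the single alternative of 18 in which Slc12a5 was called. Leaving out Control 1 gave -0.37 (SE 0.172, edgeR adjusted p = 0.313).

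Control 1 and Control 4 were also the libraries with most spinal cord transcripts. The summed level of 15 spinal cord marker genes was 21.9, 19.8, 25.9 and 25.3 CPM in AD1 OE 1 to 4 and 57.6, 16.9, 22.2 and 36.4 CPM in Control 1 to 4. The groups overlapped in this sum (exact permutation test, two-sided, p = 0.3714), and no marker was at 0 in every library, although Lbx1, Mnx1 and Sox14 were at 0 in some. For example, Olig1, a factor of the oligodendrocyte and motor neuron lineage, was at 8.37 CPM in Control 1 and 3.78 CPM in Control 4 and between 0.678 and 1.65 CPM in the other libraries. Slc6a5, the neuronal glycine transporter, was at 5.44 CPM in Control 1 and 2.88 CPM in Control 4, against 0.407 to 1.57 CPM elsewhere.

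The 3 libraries highest in Slc12a5, Control 1, Control 4 and AD1 OE 3, stood in the same order at the top of the spinal cord sum. Below them the orders parted, with Control 2 at rank 5 in Slc12a5 and last in the spinal cord sum. Of the 10 spinal cord markers that could be tested, 9 were lower in AD1 OE and 0 were called by edgeR, with 3 at an unadjusted p below 0.05, beside 2.57% and 18.6% of all tested genes. The log2 fold changes of these 10 ran from -1.7 to 0.19, with a median of -1.22, against 0.00182 over all tested genes. Without Control 1 and Control 4, the log2 fold change of Slc12a5 was -0.14 (SE 0.153, edgeR adjusted p = 0.787). With AD1 OE 3 left out as well, it was -0.28 (SE 0.107, edgeR adjusted p = 0.228). The libraries left out were those highest in Slc12a5 itself. The smaller difference without the highest Controls therefore follows from the choice of libraries and says nothing about spinal cord tissue. The part of spinal cord tissue in the Slc12a5 difference was not tested.

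**Figure D2:**
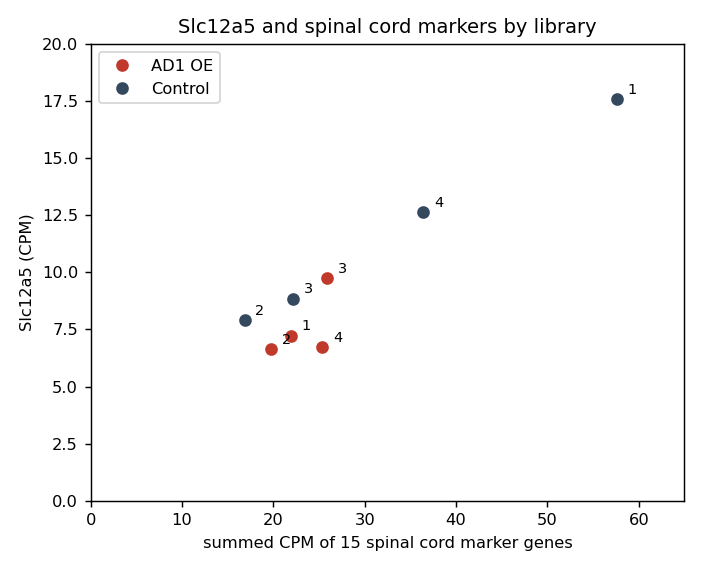
CPM of Slc12a5 (vertical axis) against the summed CPM of 15 spinal cord markers (horizontal axis), 1 point per library, coloured by group and labelled with the replicate number. Control 1 and Control 4 lie at the upper right, and the other 6 libraries fall between 6.64 and 9.75 CPM of Slc12a5.

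Transcription of Slc12a5 starts at alternative promoters, and the counts per gene do not separate them. Windows of 300 bases, from 250 before to 50 after a start annotated by RefSeq on GRCm38.p6, were examined for 3 of the 4 genes. These were Slc12a4, Slc12a5 and Slc12a7, with 5 starts in all, and Slc12a2 was left out of the search. The window of the downstream Slc12a5 start on the plus strand of chromosome 2 is shown because it holds an E-box, the element to which the upstream stimulatory factors Usf1 and Usf2 bind. Capitals mark the E-box CACGTG, a palindrome, which begins at position -36 from the start.
Slc12a5, chr2:164967738-164968037: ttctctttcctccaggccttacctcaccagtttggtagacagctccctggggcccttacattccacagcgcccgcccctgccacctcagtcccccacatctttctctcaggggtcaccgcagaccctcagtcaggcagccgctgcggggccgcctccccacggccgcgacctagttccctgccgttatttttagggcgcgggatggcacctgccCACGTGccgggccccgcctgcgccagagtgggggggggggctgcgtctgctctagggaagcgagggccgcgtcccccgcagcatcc
The same 6 letters were found in 3 of the 5 windows, the others being a pair of overlapping Slc12a7 windows that share 1 match, and in 7.15% of 32851 promoter windows genome-wide. The Egr-type motif GCGTGGGCG, searched on both strands, was in 0 of the 5 windows and in 0.612% of all. Usf1 was at 35.9 ± 1.64 CPM in AD1 OE against 36.7 ± 1.93 in Control, Usf2 at 28.2 ± 1.65 and 27.8 ± 1.29 CPM, and Rest, a repressor of neuronal genes including Slc12a5, at 23.1 ± 2.03 and 22.1 ± 1.34 CPM. None of these 3 regulators was called by edgeR (adjusted p from 0.693 to 0.907) or reached an unadjusted p below 0.05. Egr4, an activator of Slc12a5, had at most 11 counts in a library and was not tested.

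Levels of different genes were compared as CPM per kilobase of all annotated exon bases. On this scale Slc12a2 was the most abundant SLC12 gene, at 19.7 ± 0.739 in AD1 OE and 19.5 ± 1.38 in Control (SD, n = 4). Slc12a4 followed at 9.03 ± 0.694 and 8.84 ± 0.0556, Slc12a7 at 4.85 ± 0.197 and 4.79 ± 0.506, and Slc12a5 at 1.02 ± 0.197 and 1.58 ± 0.591. With this length, these 4 genes kept this order in 8 of 8 libraries, with no overlap between their ranges.

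Among the 8 SLC12 genes compared, Slc12a9, a family member without a settled transport function, came between Slc12a4 and Slc12a7. The ranges of Slc12a4 and Slc12a9 overlapped over the 8 libraries, although Slc12a4 was above Slc12a9 in each of them. Slc12a8, Slc12a3 and Slc12a1 were lowest, at means of at most 0.315, and Slc12a8 was above Slc12a3 in 6 of 8 libraries. With the longest transcript as length, Slc12a9 stood above Slc12a4 in 8 of 8 libraries, while Slc12a2 stayed first and Slc12a5 stayed next below Slc12a7. Slc12a4 was still above Slc12a7 in 8 of 8 libraries, but their ranges overlapped, with means over all libraries of 10.0 and 8.74.

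**Figure D3:**
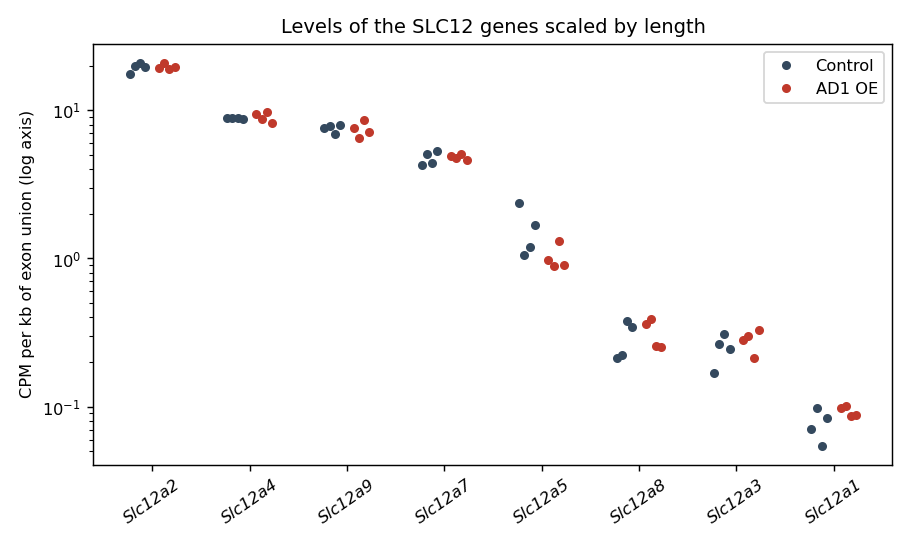
CPM per kilobase of annotated exon for 8 SLC12 genes in each library (log axis; points are libraries, coloured by group). Slc12a2 is highest in all 8 libraries and Slc12a5 lies below Slc12a7 and above Slc12a8 in all 8.

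NKCC1 and KCC2 act in opposite directions on chloride, and their transcript ratio was computed within each library from the levels per kilobase. Slc12a2 exceeded Slc12a5 by 19.7, 23.2, 14.6 and 21.8 times in AD1 OE 1 to 4 and by 7.43, 18.7, 17.5 and 11.5 times in Control 1 to 4. The ratio was lowest in Control 1 and Control 4, and AD1 OE 3 fell within the Control range. Group means were 19.9 ± 3.79 and 13.8 ± 5.28, with mean ± SD ranges that overlapped. The size of the ratio depends on the length used, and with the longest transcript the means were 26.9 ± 5.14 and 18.7 ± 7.16. Slc12a5 made up 6.80% ± 0.868 of the summed level of the exporter genes Slc12a4, Slc12a5 and Slc12a7 in AD1 OE and 10.3% ± 3.62 in Control. Set against that sum, Slc12a2 stood at a ratio of 1.33 ± 0.130 in AD1 OE and 1.28 ± 0.130 in Control. With the longest transcript as length, these ratios were 1.64 and 1.59. The sum itself, on exon bases, was 14.9 ± 1.06 and 15.2 ± 0.586 CPM per kilobase.

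None of 4 other SLC12 genes was called by edgeR, and 0 of 4 had an unadjusted p below 0.05, beside shares of 2.57% and 18.6% over all tested genes. Slc12a9 had a log2 fold change of -0.02 (95% interval -0.19 to 0.15). The other intervals were wider. For the kidney cotransporter genes they ran from -0.26 to 0.78 for Slc12a1 (NKCC2), which had 8 to 25 counts, and from -0.21 to 0.58 for Slc12a3 (NCC). That of Slc12a8 ran from -0.39 to 0.62.

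None of the WNK, SPAK and OSR1 kinase genes that control the cotransporters was called by edgeR or had an unadjusted p below 0.05. Among 10 genes of the WNK-SPAK pathway, 1 was called, beside the 2.57% of all tested genes called in either direction and the 1.78% called lower, and its transcript fell. Cab39l (ENSMUSG00000021981), which encodes the scaffold MO25-beta that activates SPAK and OSR1, was at 58.9, 61.1, 59.5 and 60.0 CPM in AD1 OE 1 to 4 and at 84.3, 91.1, 92.4 and 93.3 CPM in Control 1 to 4. Every AD1 OE library lay below every Control library, a non-overlap in this direction seen for 7.26% of all tested genes. The means were 59.9 ± 0.950 and 90.3 ± 4.06 CPM (log2 fold change -0.59, SE 0.04, 95% interval -0.68 to -0.51, edgeR adjusted p = 3.93e-06). Cab39l was called in 18 of 18 alternatives, and 3.82% of its exon bases are shared with Cdadc1 on the opposite strand.

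The paralog Cab39, encoding MO25-alpha, had a log2 fold change of -0.06 (95% interval -0.14 to 0.01, edgeR adjusted p = 0.382). Stk39, the SPAK gene, was at 121 ± 5.12 CPM in AD1 OE against 123 ± 2.85 in Control, and Oxsr1, the OSR1 gene, at 106 ± 3.37 and 104 ± 1.78 CPM. Wnk1, at 387 ± 19.6 and 391 ± 29.4 CPM, had a log2 fold change of -0.02 (95% interval -0.15 to 0.11). Wnk4 had the widest interval among the WNK genes, -0.04 to 0.42 (edgeR adjusted p = 0.372). The remaining genes of this list, Wnk2, Wnk3, Klhl3 and Cul3, lay between -0.06 and 0.05 in log2 fold change.

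**Figure D4:**
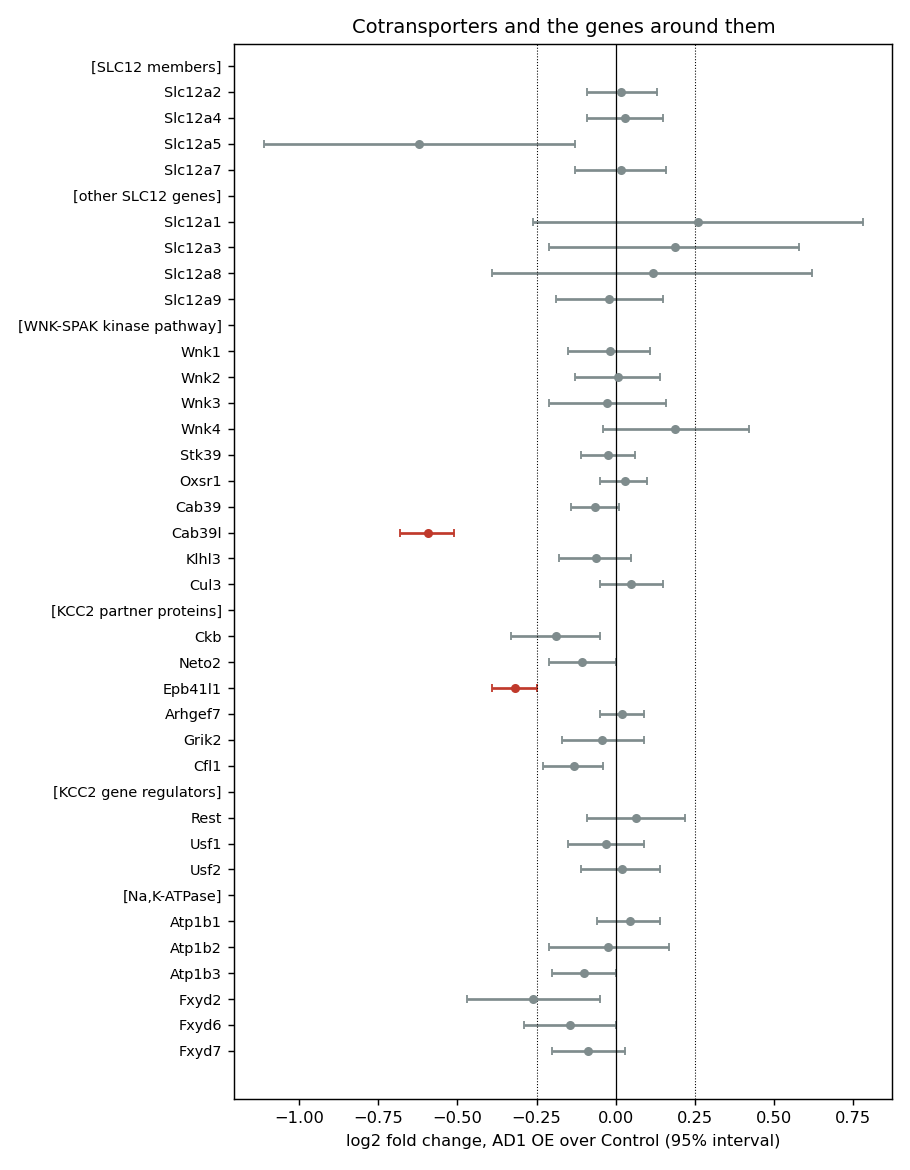
Log2 fold change (AD1 OE minus Control, horizontal axis) with its 95% interval for the tested genes of the pathway lists, grouped by list. Red points passed the call rule, and dotted lines mark a log2 fold change of -0.25 and 0.25. Cab39l and Epb41l1 are the red points.

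Among 6 genes for proteins known to bind or act with KCC2, 1 was called and 4 had an unadjusted p below 0.05, where 2.57% and 18.6% of all tested genes did so. Epb41l1 (ENSMUSG00000027624), which encodes the cytoskeletal protein 4.1N that anchors KCC2 in dendritic spines, was at 184, 173, 179.9 and 183 CPM in AD1 OE 1 to 4. In Control 1 to 4 it was at 221, 228, 220.0 and 228 CPM, above every AD1 OE library (7.26% of all tested genes were lower in AD1 OE without overlap). The fall from 224 ± 4.03 to 179.8 ± 4.94 CPM was a log2 fold change of -0.32 (SE 0.03, 95% interval -0.39 to -0.25, edgeR adjusted p = 1.01e-04), called in 18 of 18 alternatives.

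Other partners of KCC2 did not pass the call rule. Ckb, brain creatine kinase, had a log2 fold change of -0.19 (edgeR adjusted p = 0.127) and was highest in Control 1 (275 CPM) and Control 4 (256 CPM), as Slc12a5 was. Cfl1, the actin-severing protein cofilin, was, like Epb41l1, lower in each AD1 OE library than in any Control library, with a log2 fold change of -0.13 (edgeR adjusted p = 0.117). Neto2, an auxiliary subunit of kainate receptors, had -0.11 (edgeR adjusted p = 0.252). Arhgef7 and the kainate receptor gene Grik2 had log2 fold changes of 0.02 and -0.04.

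Beta and FXYD subunits of the sodium-potassium pump, which guide the pump to the membrane and tune its activity, were also listed. Of 6 such genes 0 were called by edgeR, beside 2.57% of all tested genes, and 3 had an unadjusted p below 0.05, beside 18.6%. Atp1b1, a widely expressed beta subunit gene, was at 580.1 ± 23.1 CPM in AD1 OE against 563 ± 21.3 in Control (log2 fold change 0.04, 95% interval -0.06 to 0.14). The lowest log2 fold change was that of Fxyd2, -0.26 (95% interval -0.47 to -0.05, edgeR adjusted p = 0.158). Atp1b3 and Fxyd6 had log2 fold changes of -0.10 and -0.14 (edgeR adjusted p = 0.245 and 0.259), and the groups overlapped for all 6 genes (13.0% of all tested genes did not overlap).

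Other routes for chloride and bicarbonate were also listed. None of 10 tested transporter genes of the SLC4 and SLC26 families was called by edgeR (2.57% over all tested genes), and 1 of them, the sulfate transporter gene Slc26a2, had an unadjusted p below 0.05 (log2 fold change 0.22, edgeR adjusted p = 0.232), a level that 18.6% of all tested genes reached. The anion exchangers Slc4a2 and Slc4a3, which load chloride in exchange for bicarbonate, had log2 fold changes of -0.01 (95% interval -0.10 to 0.09) and 0.03 (-0.09 to 0.15). Slc4a10, a sodium-coupled bicarbonate transporter of neurons, had an interval of -0.11 to 0.38. Slc4a5, the eleventh gene of the list, had at most 10 counts and was not tested.

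None of 16 tested chloride channel genes was called by edgeR (2.57% over all tested genes), and 3 had an unadjusted p below 0.05, a share close to the 18.6% of all tested genes. Clcn5, an endosomal chloride-proton exchanger, was lower in every AD1 OE library, as 7.26% of all tested genes were (149 ± 6.04 against 175 ± 8.30 CPM, edgeR adjusted p = 0.00465), but its log2 fold change of -0.23 was under the limit. Without Control 1 it passed both limits (edgeR adjusted p = 0.00372). Clcn2, which conducts chloride at the plasma membrane, had a log2 fold change of 0.05 (95% interval -0.07 to 0.16). Ano1, a calcium-activated chloride channel of sensory neurons, was at 13.1 ± 1.29 CPM in AD1 OE against 12.2 ± 2.65 in Control. Lrrc8e and Cftr were too low to test.

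Carbonic anhydrases supply the bicarbonate that GABA-A receptors also conduct, and 1 of 12 tested members of that family was called, beside 2.57% of all tested genes (1.78% lower). Car8 (ENSMUSG00000041261), a family member without catalytic activity that binds the IP3 receptor, was at 9.18, 10.1, 8.72 and 11.3 CPM in AD1 OE 1 to 4 and at 22.2, 26.9, 25.1 and 24.6 CPM in Control 1 to 4. Each AD1 OE library lay below 12 CPM, and the fall in Car8 (log2 fold change -1.34, SE 0.09, edgeR adjusted p = 3.53e-06) was called in 18 of 18 alternatives. In edgeR, 3 of the 12 had an adjusted p below 0.05, beside 6.55% of all tested genes. At an unadjusted p below 0.05 there were 5, beside 18.6%. Car10 was lower in every AD1 OE library (log2 fold change -0.2, edgeR adjusted p = 0.0274), as 7.26% of all tested genes were. Car4, at a mean of 0.823 CPM in AD1 OE and 0.368 in Control, was higher in every one (edgeR adjusted p = 0.098), as 5.69% were. The catalytically active Car2 and Car7 were at 12.2 ± 1.98 and 3.59 ± 0.125 CPM in AD1 OE and at 14.5 ± 1.22 and 3.64 ± 0.423 CPM in Control, and were not called. Car3, a muscle enzyme, was at 25.4, 22.2, 37.6 and 27.5 CPM in AD1 OE 1 to 4 and at 27.5, 135, 137 and 60.3 CPM in Control 1 to 4, with an edgeR adjusted p of 0.0261. Without Control 1, in which it was lowest among the Controls, Car3 was called (log2 fold change -1.98, edgeR adjusted p = 8.6e-04). Skeletal muscle markers summed to 121 to 622 CPM in AD1 OE and 145 to 397 CPM in Control, and their part in the Car3 values was not tested.

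Among the receptors that use the chloride gradient, of 19 tested GABA-A and glycine receptor subunit genes, 3 were called by edgeR, 8 had an adjusted p below 0.05 and 12 an unadjusted p below 0.05, where 2.57%, 6.55% and 18.6% of all tested genes did so. Gabrg1 fell from 13.0 ± 0.865 to 6.79 ± 0.735 CPM (log2 fold change -0.94, edgeR adjusted p = 3.98e-05). Gabrd fell by 1.09 on the log2 scale (edgeR adjusted p = 6.87e-04). Gabrq rose by 1.03, where 0.784% of all tested genes were called higher, and its edgeR adjusted p of 0.00499 was barely under the limit of 0.005. Mean CPM in AD1 OE was 0.981 for Gabrd and 5.46 for Gabrq. The groups did not overlap for 10 of the 19 tested subunit genes, these 3 among them, beside 13.0% of all tested genes. Of all tested genes, 7.26% were lower and 5.69% higher in AD1 OE without overlap. Gabrg1 was called in 18 of 18 alternatives, Gabrd in 15 and Gabrq in 8, and both Gabrd and Gabrq were lost when a sex score was added (edgeR adjusted p = 0.00661 and 0.035). Gabrd was also lost without Control 1 and Control 4 (edgeR adjusted p = 0.0107). Among its other losses, Gabrq missed the limit slightly with RLE size factors (edgeR adjusted p = 0.00504) and with a filter of 1 CPM (edgeR adjusted p = 0.00505).

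**Figure D5:**
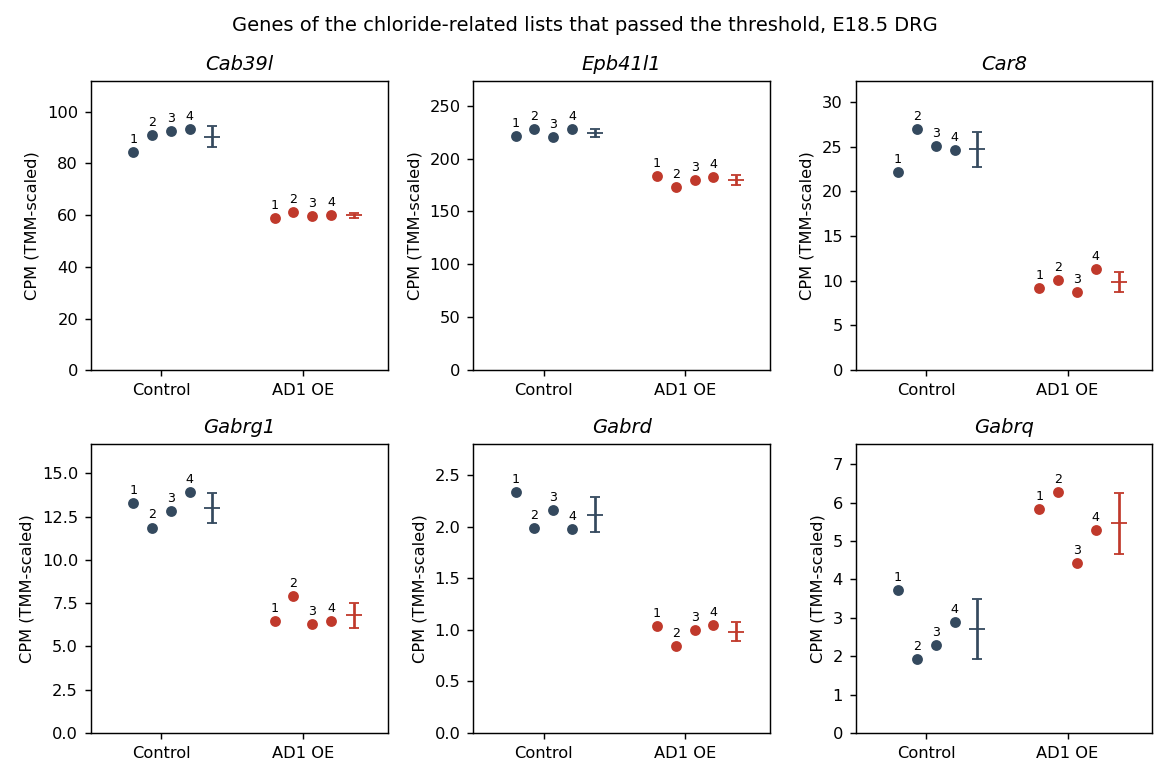
CPM of Cab39l, Epb41l1, Car8, Gabrg1, Gabrd and Gabrq in each library (linear axes; points are libraries, numerals are replicate numbers, bars are the mean ± SD of 4 libraries per group). AD1 OE lies wholly above Control for Gabrq and wholly below it for the other 5 genes.

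Genes whose pattern over the 8 libraries was nearest to each cotransporter were found by Pearson correlation of log2(CPM + 0.25) over 12166 protein-coding genes whose mean reached 5 CPM. For Slc12a5 these were Phpt1, Hap1 and Creb3, each with r = 0.97. Hap1, the huntingtin-associated protein gene, was at 54.4 CPM in Control 1 and 41.9 CPM in Control 4 and between 30.0 and 33.6 CPM in the other 6 libraries, so it was high in the same libraries as Slc12a5. Nearest to Slc12a2 were Slc7a2, a cationic amino acid transporter gene (r = 0.97), Tubgcp5 (r = 0.97) and Zfp78 (r = 0.95). Ccdc61 (r = 0.96), Enho and Zfp282 (both r = 0.95) were nearest to Slc12a4, and Mettl27 (r = 0.96), Etl4 (r = 0.96) and Tbcd (r = 0.95) to Slc12a7. These are descriptions over 8 libraries that share depth and tissue composition, picked from many genes, and no test was made of them.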

How the data were processed

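Dorsal root ganglia were dissected, RNA was extracted, and stranded mRNA libraries were sequenced. The authors demultiplexed reads with bcl2fastq 2.20.0.422, aligned them to GRCm39 with STAR 2.7.8a, counted them with featureCounts 2.0.1 and deposited raw counts per Ensembl gene, 1 file per library, not normalized or filtered. The strand setting of the counting is not given in the sources used here. Groups and replicate numbers came from the sample titles. No line named no gene, and replicate pairs differed beyond counting noise, so none was counted as a repeat.

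Symbols (52133 of 55414 IDs), chromosomes and exon lengths came from GENCODE M21, whose build (GRCm38) precedes the one used for counting, and promoter windows from RefSeq on GRCm38.p6. Testing was done with edgeR 4.0.16 under R 4.3.3 (filterByExpr, TMM scaling, quasi-likelihood F test, genotype as the only term, Benjamini-Hochberg adjustment over 17721 genes), and the calling limits were those the study used for this comparison. CPM used TMM-scaled totals. The common biological coefficient of variation was 8.22%. The steps were tested on simulated data.

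Alternatives were DESeq2 1.42.0, limma 3.58.1 (voom), other scalings and filters, a replicate block, a sex score, each library left out, and a threshold of 0.05 with no fold limit. Leaving out Control 1 and 4, with or without AD1 OE 3, was added after the data had been seen. The members and lists were chosen with earlier results of these data known. The text names the members, genes of the lists, Dach1, Avil and the 3 nearest patterns per member. Intervals are 95% and cover the spread between libraries. Totals ranged from 22339059 to 44025625 counts. Reads carried no molecular identifiers. Some genes of these families are not reported here.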

Additional observations from a re-analysis of the deposited data

Results flagged for a closer look

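In 32 groups of 4 libraries (16 genes in both groups), 1 library stood far from the rest of its group. Gabrg1 was at 7.89 CPM in AD1 OE 2, against 6.49, 6.31 and 6.48 CPM in AD1 OE 1, 3 and 4, and the gap to the nearest library was 0.888 of the group's range, above Dixon's critical value for 4 samples. Chance alone puts about 1 in 20 such groups over that limit. Every AD1 OE value of Gabrg1 remained below the lowest Control value of 11.9 CPM.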

How the results depend on the processing

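Each cotransporter result was recomputed under 16 planned and 2 added alternatives. Slc12a2, Slc12a4 and Slc12a7 were called in none of them, and their log2 fold changes, close to 0 throughout, changed sign in some. Slc12a2 was at -0.0023 with a sex score, at -0.044 without Control 1 and 4, at -0.031 with AD1 OE 3 left out too, and between -0.026 and 0.054 when 1 library was left out, with -0.0063 without AD1 OE 2 and -0.026 without Control 1. Slc12a4 was at -0.010 without Control 1, Control 4 and AD1 OE 3, and between -0.00058 (without AD1 OE 3) and 0.078 when 1 library was left out. Slc12a7 was at -0.020 with a sex score and between -0.029 and 0.078 when 1 library was left out, with -0.029 without Control 1 and -0.015 without Control 3. Slc12a5 was lower in AD1 OE in all 18, between -0.77 and -0.37 when 1 library was left out (edgeR adjusted p from 0.0642 to 0.313), and called only with no filter on low counts (-0.61); the cause was not tested.

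The count over all genes was 455, and it was 747 with no filter, 254 without Control 1 and 4, 1161 at an adjusted p under 0.05 with no fold limit, and 289 (without AD1 OE 1) to 420 when 1 library was left out. The receptor subunits went from 3 to 5 with DESeq2 and to 7 with no filter, and fell to 2 with RLE size factors, the 1 CPM filter, the block and the sex score and to 2 to 4 when 1 library was left out, with Gabrq or Gabrd lost. Carbonic anhydrases went from 1 to 3 with no filter and under both added alternatives (Car1 and Car3 gained) and to 1 to 2 when 1 library was left out. Car1 was too low to test in the main fit. Its highest counts, 29 and 35, were in Control 2 and Control 3, the Controls that the added alternatives keep. Chloride channels went to 0 to 1. Counts in the other lists were the same in 18 of 18.

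Replicate numbers were not treated as pairs in the main test. Correlations of same-numbered deviations were -0.01, -0.054, -0.035 and 0.313 for replicates 1 to 4, and whether the numbers pair the samples was not tested. With the number as a block, the 4 cotransporter log2 fold changes were 0.02 (Slc12a2), 0.03 (Slc12a4), -0.60 (Slc12a5, edgeR adjusted p = 0.143) and 0.02 (Slc12a7), and 348 of all genes were called.

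With 4 libraries per group the intervals of Slc12a2, Slc12a4 and Slc12a7 leave room for differences of up to about 0.16 on the log2 scale. Those of Slc12a5, at 149 to 447 counts, are wider. Protein, phosphorylation and chloride were not measured, and cell types were not separated.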
